A study of Mus musculus with 15 samples.

Results

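This section compares mouse fibroblasts that expressed C/EBPe with fibroblasts that expressed C/EBPa, the pair of profiles that lay closest together among the 4 C/EBPs of the study. The 3 epsilon arrays and the 3 alpha arrays, chosen by their titles, are 6 of the 15 arrays of the series. All cells were NIH 3T3, an immortal mouse fibroblast line. They carried a zinc-inducible metallothionein-promoter plasmid with a human cDNA: CEBPE cells had the C/EBPe cDNA, CEBPA cells the C/EBPa cDNA, and vector cells the plasmid without insert. Every culture, vector cells included, had been selected with the antibiotic G418 and treated with zinc sulphate for 16 h before total RNA was taken and hybridised to Affymetrix MG_74Av2 oligonucleotide arrays. The transfectants were polyclonal and had been screened by Western blot for the C/EBP protein. C/EBP protein levels are not compared here.

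C/EBPs are basic leucine zipper transcription factors that bind DNA as dimers. C/EBPa is best known from fat cells, hepatocytes and early granulocyte precursors, where it drives differentiation and stops division. C/EBPe acts later in the granulocyte lineage, where neutrophil granule proteins depend on it. Forced expression of C/EBPa is known to turn fibroblast lines toward the fat cell fate.

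The deposited values are linear signal intensities per probe set (a group of short probes for one transcript), in arbitrary units, with no detection calls. Each array was scaled to a common median of its probe sets other than controls. Signals below a floor of 189.652 units, the 20th percentile of all arrays, were set to the floor before log2 values were formed. Tests covered the 6963 of 12422 probe sets with over 1092.06 units on 3 or more of the 15 arrays. Differences below are CEBPE minus CEBPA on the log2 scale, ± the standard error of a limma fit over all 15 arrays. A probe set was called at a Benjamini-Hochberg adjusted p under 0.05 over all 6963. Signals of single arrays are given before the floor, in the order of the replicates. A value in brackets after a named array or setting is the adjusted p of the fit without that array or with that setting. Correlations of log2 values ran from 0.929 to 0.951 between CEBPE arrays, from 0.940 to 0.948 between CEBPA arrays and from 0.920 to 0.947 across the 2 groups, against 0.880 to 0.910 between CEBPE and vector arrays. In bulk RNA, fewer cells of a pool that express a gene and less RNA per cell cannot be told apart. If the 3 cultures of a group came from a single transfection, which was not established here, the p-values cover only the spread between these cultures.

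In the comparison of CEBPE with CEBPA cells, 91 probe sets were called (1.31%), 38 higher (0.546%) and 53 lower (0.761%) in CEBPE cells. The largest differences were on the lower side: 35 of the 53 were lower by more than 2-fold, and 9 of the 38 were higher by more than 2-fold. The median difference was 0.78 among the higher and -1.28 among the lower, against 0.06 over all probe sets tested. Among the 6 pairs of C/EBPs, this pair had the fewest calls and the highest correlation of group means (0.969). CEBPE with CEBPB had 163 calls and CEBPD with CEBPA 585. The 3 CEBPE arrays did not overlap the 3 CEBPA arrays for any of the 91, a separation seen in 964 of all 6963 (13.8%), of which 646 were higher (9.28%) and 318 lower (4.57%). Arrays that did not overlap were also required of the genes named by size below, so that separation is no further support for them. Of the 91, 78 name 1 gene, 5 name several and 8 name none, and the 78 stand for 74 genes.

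The count of higher probe sets was 17 without CEBPA array 2, 18 without CEBPA array 3, 19 without CEBPE array 2 and 18 without CEBPE array 3. The count of lower ones was 33 without CEBPA array 3. With the arrays of CEBPE and CEBPA alone, 20 were higher and 49 lower. The plain F-test on those 6 arrays called 2 higher and 7 lower.

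**Figure D1:**
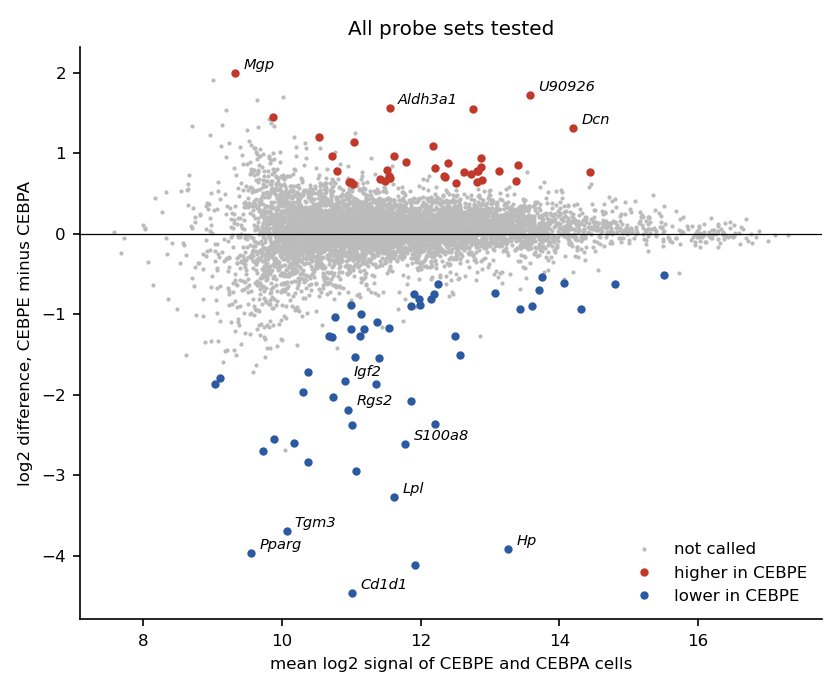
Log2 difference CEBPE minus CEBPA (vertical axis) against mean log2 signal of the 6 arrays (horizontal axis) for the 6963 probe sets tested, with the 38 called higher in red, the 53 called lower in blue and the rest in grey. The lower calls reach -4.46, and the higher calls end at 2.0.

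The position of vector cells was counted for each direction. For 44 of the 53 lower probe sets (83.0%) the vector mean was nearer to CEBPE than to CEBPA, against 45.8% of all probe sets tested. For 24 of the 38 higher probe sets (63.2%) it was nearer to CEBPA, against 54.2% of all. Both C/EBPs differed widely from vector: 1134 probe sets (16.3%) were called between CEBPE and vector cells, 653 higher (9.38%) and 481 lower (6.91%). Between CEBPA and vector cells 997 were called (14.3%), 499 higher (7.17%) and 498 lower (7.15%). These 2 comparisons share the vector arrays, so their values are given side by side below and no overlap is counted.

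The genes of fat storage and fat cell differentiation gave some of the largest differences. Pparg encodes the nuclear receptor that governs fat cell differentiation and is a textbook partner of C/EBPa. Its signals were 22.4, 28.1 and 28.3 units in CEBPE cells, against 2978, 2662 and 3309.9 units in CEBPA cells. The CEBPE arrays, and the vector arrays with 175, 77.8 and 21.3 units, all lay under the floor, whereas every CEBPA array was far above it. Pparg was therefore at least 15.7-fold lower in CEBPE than in CEBPA cells (log2 -3.97 ± 0.60, adjusted p = 0.00124). That bound moves with the floor: the difference was -2.15 with a floor at the 40th percentile and -6.83 with none, where the call was lost (0.108). Pparg was called in 12 of the 13 alternatives in which it was tested, and over the 13 its adjusted p ran from 3.24e-09 to 0.108. It passed the signal filter only through the CEBPA arrays, where it was high. Fits that left out 1 of those arrays did not test it, so these counts do not show how firm the call is. Lipoprotein lipase (Lpl), which releases fatty acids from circulating triglyceride, gave 783, 1075 and 1218 units in CEBPE cells, against 9946, 8228 and 11343 units in CEBPA cells, and 223, 289 and 249 units in vector cells. No array of 1 group came near the other. Lpl was 9.67-fold lower in CEBPE cells (log2 -3.27 ± 0.23, adjusted p = 1.66e-07), and its other probe set gave a difference of -2.95 ± 0.29 (adjusted p = 1.4e-05). By the first probe set, Lpl was also higher in CEBPE than in vector cells, by 2.0 (adjusted p = 1.08e-05), against 5.27 in CEBPA over vector cells (adjusted p = 1.34e-10). By the other, CEBPE minus vector was 0.47 and was not called (adjusted p = 0.31), against 3.42 for CEBPA minus vector (adjusted p = 4.14e-07).

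Smaller differences were called for 2 other members of the fat cell list. Plin2, which coats lipid droplets, had 6852, 11632 and 9566 units in CEBPE cells, against 15114, 17064 and 19032 units in CEBPA cells (log2 -0.90 ± 0.21, adjusted p = 0.0444). This call is weak: leaving out single arrays ended it in 9 of 15 fits, among them those without CEBPE array 1 (adjusted p = 0.159) or 3 (0.127) and without CEBPA array 1 (0.0638), 2 (0.171) or 3 (0.193). The other 4 were those without vector array 3 (0.0631), CEBPB array 1 (0.0579) or 3 (0.0623) and CEBPD array 3 (0.0666). It was lost as well with no filter (0.167), no trend (0.083), CEBPE and CEBPA arrays alone (0.0509) and without the 5 arrays numbered 1 (0.073). Mgst1, a microsomal glutathione transferase, had 3071, 3254 and 2824 units in CEBPE cells, against 5231, 5619 and 5197 units in CEBPA cells (log2 -0.81 ± 0.14, adjusted p = 0.00397). It was not called without the 5 arrays numbered 1 (0.0993). Abcd2, a peroxisomal transporter of very long chain fatty acids, gave 865, 534 and 569.7 units in CEBPE cells, against 2530.5, 2051 and 3020.3 units in CEBPA cells and 283, 85.0 and 268 units in vector cells. It was 3.9-fold lower in CEBPE cells (log2 -1.97 ± 0.40, adjusted p = 0.0165), a call that was lost without CEBPE array 2 (0.0709) or 3 (0.0817), with the floor at the 10th percentile (0.0689) and with none (0.0753).

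Counted by list, 4 of 15 tested fat cell genes were lower and none was higher. Their median was 0.05 against 0.06 over all genes tested, of which 0.712% were lower and 0.618% higher. The sign of that median turned with quantile normalization and without scaling. The remaining 11 members lay within 1.5-fold of each other in the 2 groups. Abcd2 was the single call among 16 fatty acid oxidation genes, whose median was 0.12. The carnitine palmitoyltransferase gene Cpt1a, at the entry of fatty acids into mitochondria, gave 0.26 (95% interval -0.04 to 0.56). Of 5 markers of the mature fat cell on the array only leptin (Lep) passed the signal filter, with 5519, 3904 and 5606 units in CEBPE cells, against 4197, 4297 and 4457 units in CEBPA cells. Cidec was under the floor on all 6 arrays. The summed marker signal, most of it Lep, was 4919 to 6504 units in CEBPE cells, 4658 to 5245 in CEBPA cells and 4331 to 4985 in vector cells.

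Promoter sequences, 250 bases before to 50 bases after each start site, are shown for the most changed genes with an entry, Pparg and Tgm3 on the lower side and U90926 and Fam107b on the higher, because C/EBPs bind DNA directly. They are from RefSeq on build GRCm38.p6. Capitals mark each match to the C/EBP-type motif TTGCNNAA, or TTNNGCAA on the other strand. Of 3 Pparg start sites, number 3, at chr6:115421816-115422115 on the plus strand, held TTGCCAAA 215 bases and TTTTGCAA 16 bases upstream of the start. The other Pparg windows held no match. The Tgm3 window, chr2:130012090-130012389 on the plus strand, held TTGCATAA 160 bases upstream.
Pparg, start site 3: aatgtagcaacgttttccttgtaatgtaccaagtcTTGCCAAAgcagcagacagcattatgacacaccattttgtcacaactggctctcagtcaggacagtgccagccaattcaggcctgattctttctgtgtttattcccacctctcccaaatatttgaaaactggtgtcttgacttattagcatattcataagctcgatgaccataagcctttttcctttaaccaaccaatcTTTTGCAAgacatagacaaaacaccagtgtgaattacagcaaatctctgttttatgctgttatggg
Tgm3: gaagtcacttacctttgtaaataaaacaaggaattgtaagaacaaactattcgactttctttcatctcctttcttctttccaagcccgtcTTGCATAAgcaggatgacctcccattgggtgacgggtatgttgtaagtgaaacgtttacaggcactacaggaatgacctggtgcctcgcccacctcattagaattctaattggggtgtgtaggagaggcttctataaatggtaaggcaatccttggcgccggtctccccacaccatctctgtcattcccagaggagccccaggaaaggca
U90926 (chr5:92215359-92215658, minus strand): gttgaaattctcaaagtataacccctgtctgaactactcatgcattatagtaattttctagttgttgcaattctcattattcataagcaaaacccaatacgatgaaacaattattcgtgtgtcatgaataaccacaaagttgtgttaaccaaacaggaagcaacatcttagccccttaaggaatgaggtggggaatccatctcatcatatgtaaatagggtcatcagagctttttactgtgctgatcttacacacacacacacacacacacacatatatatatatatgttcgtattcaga
Fam107b (chr2:3713208-3713507, plus strand): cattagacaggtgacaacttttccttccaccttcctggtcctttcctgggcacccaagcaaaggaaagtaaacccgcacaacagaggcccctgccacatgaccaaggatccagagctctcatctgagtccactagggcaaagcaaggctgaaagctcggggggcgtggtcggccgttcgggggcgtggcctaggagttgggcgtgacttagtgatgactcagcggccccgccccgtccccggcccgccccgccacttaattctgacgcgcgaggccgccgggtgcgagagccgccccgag
The windows of U90926 and Fam107b held no match. Over the genes called lower with an entry (29 of 40), 10 of 42 windows held the motif (23.8%), and over those called higher (20 of 34), 3 of 34 did (8.82%). Among windows of all genes tested the share was 8.85%, and among the windows of all genes it was 10.8%. A gene with several start sites gives several windows, so these are shares of windows and not of genes. A match is a run of letters in the window and not a measured binding site.

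Acute phase proteins are plasma proteins that the liver secretes during inflammation, and several are classic C/EBP targets in hepatocytes. Of 18 on the array 7 were tested. Of these, 4 were lower in CEBPE cells and none was higher, with a median of -1.27, the value of Cp. The 3 not called, outside the naming rule, were Ptx3 (0.57), Lcn2 (0.17) and Saa2 (-0.03). Haptoglobin (Hp), which binds free haemoglobin, gave 2236, 2578 and 2789 units in CEBPE cells, against 29182, 41723 and 45342 units in CEBPA cells. Vector cells had 1769.5, 1164 and 1216 units, so CEBPE cells lay between vector and CEBPA cells and much nearer to vector. Hp was 15.1-fold lower in CEBPE cells (log2 -3.92 ± 0.20, adjusted p = 7.16e-09). It was still 1.86-fold higher in CEBPE than in vector cells (adjusted p = 0.00567), against 28-fold in CEBPA over vector cells (adjusted p = 1.34e-10). Kininogen (Kng1), the precursor of bradykinin, showed 1994, 1428 and 2092 units in CEBPE cells, against 8289, 7336 and 7389.9 units in CEBPA cells, and 383, 1301 and 1186 units in vector cells (log2 -2.08 ± 0.34, adjusted p = 0.00317).

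Serum amyloid A3 (Saa3), an acute phase apolipoprotein, had 1239, 520.1 and 934 units in CEBPE cells, against 3199.6, 3573 and 3545 units in CEBPA cells (log2 -2.02 ± 0.27, adjusted p = 0.000426). In vector cells it read 1132, 1281 and 1425 units, and the difference CEBPE minus vector was -0.59 (adjusted p = 0.157). Ceruloplasmin (Cp), a copper-carrying ferroxidase, gave 1114, 2007 and 1327 units in CEBPE cells, against 3427, 3248 and 3705 units in CEBPA cells (log2 -1.27 ± 0.20, adjusted p = 0.00243). The arrays of the 2 groups did not overlap for either gene, as for every called probe set. Without the 5 arrays numbered 1 Cp was not called (0.0717). Cp was also the 1 call of 5 tested genes of iron uptake and storage, where the ferritin heavy chain Fth1 gave -0.04 (95% interval -0.41 to 0.34) and the transferrin receptor Tfrc -0.01 (-0.32 to 0.30). Of 4 hepatocyte markers on the array none passed the signal filter.

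Genes of host defence and of white blood cells also separated the groups. Cd1d1 encodes a molecule that presents lipid antigens to natural killer T cells. Its signals were 268, 548 and 583 units in CEBPE cells, against 10195, 9771 and 9228 units in CEBPA cells, and 129, 179 and 261 units in vector cells. CEBPE cells were 22.1-fold lower than CEBPA cells (log2 -4.46 ± 0.29, adjusted p = 1.6e-07), and at least 2.09-fold higher than vector cells (adjusted p = 0.0201), a bound because 2 of the vector arrays were set to the floor. No other of 9 tested MHC class I and CD1 genes was called: beta-2-microglobulin (B2m), the partner chain of these molecules, gave 0.12 (95% interval -0.19 to 0.42), H2-K1 0.09 (-0.13 to 0.30) and H2-D1 -0.17 (-0.51 to 0.17).

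S100a8, a subunit of calprotectin, the calcium-binding defence protein of neutrophils, gave 1828, 1324 and 1185 units in CEBPE cells, against 8457, 7961 and 9759 units in CEBPA cells. The vector arrays read 714, 803 and 524 units, below all 6 C/EBP arrays. It was 6.12-fold lower in CEBPE cells (log2 -2.61 ± 0.27, adjusted p = 2.28e-05), and higher than vector in both, by 1.08 in CEBPE cells (adjusted p = 0.0122) and 3.70 in CEBPA cells (adjusted p = 7.13e-08). Lysozyme (Lyz2), an antibacterial enzyme of macrophages and granulocytes, had 788, 1051 and 466 units in CEBPE cells, against 2788, 2064 and 2401 units in CEBPA cells (log2 -1.72 ± 0.31, adjusted p = 0.00693). Cd14, the co-receptor for bacterial lipopolysaccharide, went the other way. It gave 6699, 7677 and 7563 units in CEBPE cells, against 4734, 4173 and 3149 units in CEBPA cells, and 3086, 2287 and 3503 units in vector cells (log2 0.88 ± 0.19, adjusted p = 0.021). The Cd14 call was lost without CEBPA array 2 (adjusted p = 0.0687) or 3 (0.135) and without CEBPE array 2 (0.076) or 3 (0.101). It was also lost with quantile normalization (0.0612), without scaling (0.07), with no filter (0.0823) and without the 5 arrays numbered 1 (0.071).

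These 3 were the calls among 9 tested granulocyte and myeloid genes, whose median was 0.03, and the macrophage receptor Csf1r gave 0.03 (95% interval -0.33 to 0.40). Ltf, Mpo and Elane, which encode granule proteins of the neutrophil lineage, did not pass the signal filter, and their groups overlapped. S100a9 did not pass it either and was not tested. It had 95.8, 159 and 133 units in CEBPE cells, all under the floor, against 667, 600 and 326 units in CEBPA cells. Of 10 granulocyte markers, 4 were tested and 1 was called. Their summed signal was 7568 to 11061 units in CEBPE cells, 16971 to 17584 in CEBPA cells and 7675 to 8048 in vector cells. S100a8 alone gave 1185 to 1828 units of the CEBPE sum and 7961 to 9759 of the CEBPA sum. The difference in the sum is therefore largely that of 1 gene already called. The summed signal of 6 macrophage markers went the other way, at 14738 to 15170 units in CEBPE cells and 12587 to 13330 in CEBPA cells. Of these markers 1 was called higher and 1 lower. Among 10 tested interferon-induced genes only the GTPase gene Gbp2 was called, with 1413, 1533 and 1555 units in CEBPE cells, against 2820.3, 2488 and 3031 units in CEBPA cells (log2 -0.89 ± 0.16, adjusted p = 0.00513), a call lost without the 5 arrays numbered 1 (0.135). The list's median was -0.14, and Irf1 gave -0.06 (95% interval -0.33 to 0.22).

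Tgm3, Serpinb2, Serpini1 and Serpinb9e were named by size among the genes lower in CEBPE cells. Tgm3, a transglutaminase that cross-links proteins in epidermis and hair, gave 87.5, 226 and 614 units in CEBPE cells, against 3461, 3959 and 4189 units in CEBPA cells, with all 3 vector arrays under the floor. The CEBPE arrays spread widely and the first was under the floor (log2 -3.70 ± 0.60, adjusted p = 0.00295). That all were below the CEBPA arrays was required by the naming rule. The Tgm3 call was lost with no floor (0.123) and with a signal filter at the 75th percentile (0.0909), and over the alternatives its adjusted p ran from 6.4e-08 to 0.256. Serpinb2, the plasminogen activator inhibitor PAI-2, had 145, 533 and 369 units in CEBPE cells, against 2133, 2614 and 1820.3 units in CEBPA cells (log2 -2.69 ± 0.61, adjusted p = 0.034). Leaving out CEBPE array 1 (0.116) or 3 (0.099) ended that call, as did a floor at the 10th percentile (0.0666) and no floor (0.0752). It was the 1 call of 12 tested genes of matrix proteolysis, whose median was 0.05, where cathepsin B (Ctsb) gave 0.19 (95% interval -0.06 to 0.44) and cathepsin L (Ctsl) 0.08 (-0.26 to 0.42).

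Serpini1, the neuronal protease inhibitor neuroserpin, had 159, 420.4 and 744 units in CEBPE cells, against 2196, 2015 and 2663 units in CEBPA cells (log2 -2.54 ± 0.55, adjusted p = 0.0269). Without CEBPE array 1 (0.0975) or 2 (0.0626) it was not called, nor with no filter (0.064), no floor (0.0579), a floor at the 10th percentile (0.0557) or array weights (0.0715). Serpinb9e, a serpin of the ovalbumin family, gave 379, 379.8 and 713 units in CEBPE cells, against 2842, 3015 and 2639 units in CEBPA cells (log2 -2.59 ± 0.29, adjusted p = 4.17e-05). With 1066, 1245 and 1053 units in vector cells, it was 2.39-fold lower in CEBPE cells than in vector cells (adjusted p = 0.0062) and 2.53-fold higher in CEBPA cells than in vector cells (adjusted p = 0.00383). Pparg, Tgm3, Lyz2, Serpinb2, Serpini1 and Abcd2 did not pass the signal filter in any fit that left out 1 CEBPA array, so they were tested in 12 of all 15 fits that left out 1 array. They passed it through CEBPA cells, the group in which they were high.

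**Figure D2:**
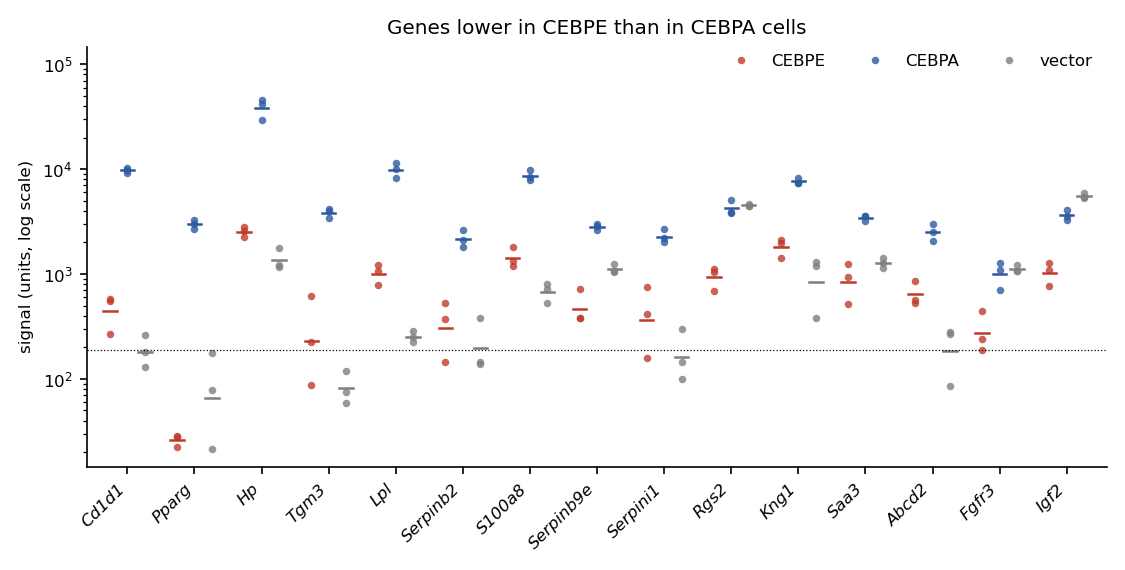
Scaled signal (log axis, arbitrary units) on each array for the 15 named genes lower in CEBPE cells, with CEBPE arrays in red, CEBPA arrays in blue and vector arrays in grey, a dash at each geometric mean and a dotted line at the floor of 189.652 units. For Cd1d1, Hp and Lpl the CEBPE arrays are closer to vector, and for Rgs2, Fgfr3 and Igf2 the CEBPA arrays are.

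Some of the lower genes were called below vector in CEBPE cells, Serpinb9e above among them. Of all probe sets tested, 6.91% were called lower in CEBPE than in vector cells. Rgs2, which speeds the switching off of G protein signals, gave 1055, 687 and 1114 units in CEBPE cells, against 5056, 3822 and 3930.1 units in CEBPA cells, and 4618, 4468 and 4466 units in vector cells. All CEBPE arrays were below all CEBPA and vector arrays. The difference was -2.19 ± 0.17 from CEBPA cells (adjusted p = 6.68e-07) and -2.28 from vector cells (adjusted p = 7.48e-08), while CEBPA minus vector was -0.09 (adjusted p = 0.793). Insulin-like growth factor 2 (Igf2), a growth factor of fetal tissues, gave 764, 1287 and 1088 units in CEBPE cells, against 3581, 4066 and 3259.9 units in CEBPA cells, and 5311, 5959 and 5441 units in vector cells. It was 3.54-fold lower in CEBPE than in CEBPA cells (log2 -1.82 ± 0.19, adjusted p = 2.09e-05), and CEBPA cells were themselves 1.54-fold lower than vector cells (adjusted p = 0.0366). Another Igf2 probe set was under the floor on every array of the 3 groups.

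Fibroblast growth factor receptor 3 (Fgfr3) showed 445, 191 and 241 units in CEBPE cells, against 1267, 710.5 and 1097 units in CEBPA cells, and 1214, 1068 and 1080.2 units in vector cells (log2 -1.86 ± 0.33, adjusted p = 0.00592). CEBPE minus vector was -2.03 (adjusted p = 0.000472). These signals are close to the filter, and the call was lost with a floor at the 40th percentile (0.348), with CEBPE and CEBPA arrays alone (0.266) and without the 5 arrays numbered 1 (0.0564), and another Fgfr3 probe set had overlapping groups and was not tested. Gadd45b, a stress and growth arrest gene, gave 1113, 924 and 1125 units in CEBPE cells, against 4077, 1664 and 2425 units in CEBPA cells, and 17033, 16484 and 14288 units in vector cells. It was lower than vector in CEBPE cells, by -3.92 (adjusted p = 5.88e-09), and in CEBPA cells, by -2.64 (adjusted p = 5.07e-07), and lower in CEBPE than in CEBPA cells (log2 -1.28 ± 0.23, adjusted p = 0.00688). That call was lost with no filter (0.0564), with CEBPE and CEBPA arrays alone (0.088) and without the 5 arrays numbered 1 (0.0564). Its relative Gadd45a gave -0.61 (95% interval -0.95 to -0.27, adjusted p = 0.0929), and it was called with quantile normalization (0.0022), without scaling (0.0083), with scaling by the median ratio (0.0179), with array weights (0.0372), with the replicate block (0.00542) and without CEBPA array 1 (0.0408).

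Igf2 and the growth hormone receptor Ghr were the 2 calls, both lower, among 21 tested growth factors and receptors, whose median was 0.13. Ghr had 3513, 3189 and 2387 units in CEBPE cells, against 4918, 5531 and 6156 units in CEBPA cells (log2 -0.88 ± 0.16, adjusted p = 0.00693) by its brighter probe set and -1.09 ± 0.18 (adjusted p = 0.00295) by the other. The brighter set was not called without CEBPE array 3 (0.0526) or CEBPA array 3 (0.0543), and the other was not called without the 5 arrays numbered 1 (0.0593). The receptor Fgfr1 gave 0.25 (95% interval -0.05 to 0.56). Gadd45b was the single call of 17 tested growth arrest genes in the main setting (median 0.03), where the kinase genes Plk2 and Plk3 gave 0.36 (-0.09 to 0.82) and 0.14 (-0.16 to 0.43).

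On the higher side, 4 genes of the extracellular matrix were called. Decorin (Dcn), a small proteoglycan that binds collagen fibrils, gave 23176, 36280.2 and 30856 units in CEBPE cells, against 10332, 11687 and 13965 units in CEBPA cells, and 2750.2, 3582 and 2823 units in vector cells. Both C/EBPs were above vector and CEBPE cells were highest, 2.49-fold above CEBPA cells (log2 1.31 ± 0.17, adjusted p = 0.000252) and 9.77-fold above vector cells (adjusted p = 1.66e-09). Matrix Gla protein (Mgp), an inhibitor of calcification, gave 1259.7, 1575 and 1049.5 units in CEBPE cells, against 443, 391 and 109 units in CEBPA cells (log2 2.0 ± 0.46, adjusted p = 0.0401). No CEBPA array reached the lowest CEBPE array, but the Mgp call was lost in 9 of 15 fits that left out 1 array: without CEBPE array 1 (0.1), 2 (0.158) or 3 (0.094), without CEBPA array 2 (0.0858) or 3 (0.177), without CEBPB array 1 (0.0561), 2 (0.0596) or 3 (0.0633), and without CEBPD array 3 (0.0628). It was also lost with no filter (0.103), no floor (0.0518), a floor at the 40th percentile (log2 0.93, adjusted p = 0.0884), CEBPE and CEBPA arrays alone (0.0961) and without the 5 arrays numbered 1 (0.151).

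Type III collagen (Col3a1), a fibril-forming collagen of soft tissue, had 1847, 2649 and 2341 units in CEBPE cells, against 1021, 793 and 1150.4 units in CEBPA cells (log2 1.21 ± 0.21, adjusted p = 0.00401). Its other tested probe set gave 0.59 ± 0.30 (adjusted p = 0.54), again with no overlap of the arrays, and a further one was under the floor on all of them. Col8a1, a short-chain collagen of vessel walls, gave 3301, 4673 and 3672 units in CEBPE cells, against 2265, 2223 and 2511 units in CEBPA cells (log2 0.72 ± 0.17, adjusted p = 0.0437). Its call was lost in 10 of 15 fits that left out 1 array: without CEBPE array 2 (0.185) or 3 (0.116), CEBPA array 1 (0.136), 2 (0.180) or 3 (0.0891), vector array 3 (0.0631), CEBPB array 1 (0.0508) or 3 (0.0623), or CEBPD array 1 (0.0557) or 3 (0.059). No filter (0.0934), no trend (0.063), CEBPE and CEBPA arrays alone (0.122) and leaving out the 5 arrays numbered 1 (0.147) also ended it. Of 30 tested collagen and matrix genes, 4 were higher and none was lower, and the median was 0.16. Of 10 fibroblast markers, all but Vim passed the signal filter. Of the 9 tested only Col3a1 was called, and the summed signal of 10 was 120422 to 153582 units in CEBPE cells, 97269 to 122044 in CEBPA cells and 116775 to 151366 in vector cells. Their part in the matrix result was not tested.

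Of the antioxidant and glutathione list, 2 of 25 tested genes, Aldh3a1 and Gsta4, were higher and 1, Mgst1, was lower, with a median of 0.11. Aldh3a1, which oxidises aldehydes from lipid peroxidation, gave 4896, 5339 and 5269 units in CEBPE cells, against 1845, 1517 and 1901 units in CEBPA cells, and 849, 815 and 1007 units in vector cells. The 3 groups did not overlap, and CEBPE cells were 2.96-fold above CEBPA cells (log2 1.56 ± 0.16, adjusted p = 1.4e-05). Aldh1a7, Sod3 and Dhrs1 are on no list and were named by size. Aldh1a7, a cytosolic aldehyde dehydrogenase, had 1925, 1459.8 and 1329.6 units in CEBPE cells, against 666, 528 and 519.5 units in CEBPA cells (log2 1.45 ± 0.28, adjusted p = 0.0126). It was not called without CEBPE array 1 (0.0783) or CEBPA array 2 (0.0592) or 3 (0.0605), nor without the 5 arrays numbered 1 (0.210) or with CEBPE and CEBPA arrays alone (0.0563). Extracellular superoxide dismutase (Sod3) gave 10784, 8956 and 11505 units in CEBPE cells, against 5899, 5068 and 5285 units in CEBPA cells (log2 0.94 ± 0.18, adjusted p = 0.0126), a call lost without CEBPE array 3 (0.0805) or CEBPA array 2 (0.0751) or 3 (0.0605), with no filter (0.0573) and without the 5 arrays numbered 1 (0.118).

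Gsta4, a glutathione transferase for the lipid aldehyde hydroxynonenal, had 2167, 2646 and 2281 units in CEBPE cells, against 1235, 904 and 1582 units in CEBPA cells (log2 0.96 ± 0.22, adjusted p = 0.0335). Vector cells had 1855, 2545 and 2125 units, which gave 0.13 for CEBPE minus vector (adjusted p = 0.749) and -0.84 for CEBPA minus vector (adjusted p = 0.0139). The Gsta4 call was lost without CEBPE array 1 (0.0592), 2 (0.129) or 3 (0.104), CEBPA array 1 (0.085) or 2 (0.191), vector array 3 (0.0501) or CEBPB array 3 (0.0518), with no filter (0.095), with CEBPE and CEBPA arrays alone (0.136) and without the 5 arrays numbered 1 (0.16). Dhrs1, a short-chain dehydrogenase, gave 10142, 9955 and 10016 units in CEBPE cells, against 6284, 5512 and 5179.6 units in CEBPA cells (log2 0.83 ± 0.13, adjusted p = 0.00139) and was called in every fit that left out 1 array.

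The other higher genes named by size did not belong to one group. U90926 gave 19591, 23644 and 23894 units in CEBPE cells, against 6964, 6079.8 and 7222 units in CEBPA cells, and 2874, 3205 and 2788 units in vector cells, with no overlap between any 2 of the 3 groups. It was 3.31-fold higher in CEBPE than in CEBPA cells (log2 1.73 ± 0.12, adjusted p = 2.22e-07), and Fam107b, with 10618, 13186 and 11987 units in CEBPE cells, against 3751, 4062 and 4347 units in CEBPA cells, was 2.94-fold higher (log2 1.55 ± 0.14, adjusted p = 2.99e-06). Fam107b had 3679, 4615 and 4499 units in vector cells, with CEBPA minus vector at -0.07 (adjusted p = 0.813). Cavin2, a coat protein of caveolae, gave 16049, 14309 and 13376 units in CEBPE cells, against 10465, 6276 and 7899 units in CEBPA cells (log2 0.86 ± 0.17, adjusted p = 0.014), a call lost without CEBPE array 1 (0.0656) or CEBPA array 2 (0.102) or 3 (0.0679), with no filter (0.0584) and with CEBPE and CEBPA arrays alone (0.0526).

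For a number of the higher genes CEBPA cells were called below vector and CEBPE cells were not. Among them were F3, Snai2 and Prss23, Gsta4 above, and Ccn2 and Egr1 below. Of all probe sets tested, 7.15% were called lower in CEBPA than in vector cells. Tissue factor (F3), which starts blood coagulation, had 5879, 7893 and 6657 units in CEBPE cells, against 3291, 3117 and 3164 units in CEBPA cells, and 5369, 7007 and 5564 units in vector cells. Its difference was 1.08 ± 0.15 (adjusted p = 0.000433), with CEBPE minus vector at 0.19 (adjusted p = 0.439) and CEBPA minus vector at -0.90 (adjusted p = 0.000407). Snai2, which encodes the repressor Slug, had 4185, 4530.1 and 4515 units in CEBPE cells, against 2542, 2589.8 and 1729 units in CEBPA cells, and 3429, 4287 and 4719.9 units in vector cells (log2 0.97 ± 0.17, adjusted p = 0.00475). Its CEBPE minus vector difference was 0.10 (adjusted p = 0.745) and its CEBPA minus vector difference -0.87 (adjusted p = 0.00176). The secreted serine protease Prss23 had 5785, 4675 and 4109 units in CEBPE cells, against 3064, 2367 and 2420.3 units in CEBPA cells, below the 6244, 8558 and 5903 units of vector cells (log2 0.89 ± 0.17, adjusted p = 0.0094). CEBPE minus vector was -0.50 (adjusted p = 0.0517) and CEBPA minus vector -1.39 (adjusted p = 2.17e-05). Prss23 was not called without CEBPE array 1 (0.051) or CEBPA array 2 (0.0687) or 3 (0.0605), or without the 5 arrays numbered 1 (0.0886).

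**Figure D3:**
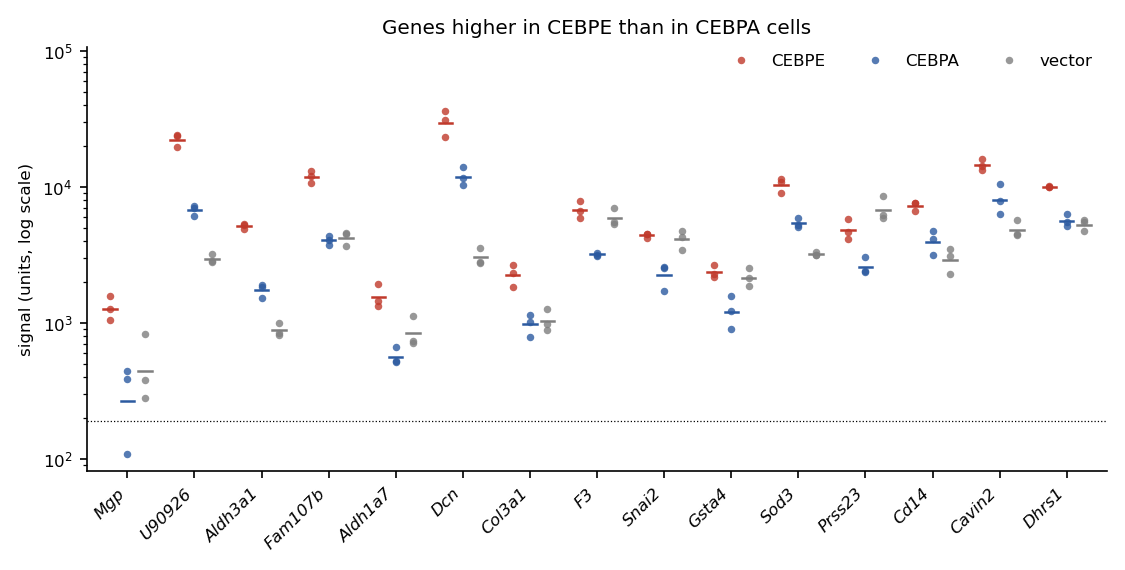
Scaled signal (log axis, arbitrary units) on each array for the 15 named genes higher in CEBPE cells, with CEBPE arrays in red, CEBPA arrays in blue and vector arrays in grey, and a dash at each geometric mean. CEBPE arrays lie above all CEBPA arrays for each gene because the naming rule required it. For F3, Snai2 and Gsta4 the CEBPA arrays lie below the vector mean.

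Immediate early genes are transcribed within minutes of a growth or stress signal. Of 28 tested, 3 were higher in CEBPE cells and none was lower, with a median of 0.12. Ccn2, the matrix-associated connective tissue growth factor, gave 10433, 13558 and 11383 units in CEBPE cells, against 7122, 6383 and 7045 units in CEBPA cells (log2 0.78 ± 0.13, adjusted p = 0.00371). Its relative Ccn1 gave 2437, 2775 and 2557 units in CEBPE cells, against 1563, 1763 and 1745 units in CEBPA cells (log2 0.62 ± 0.13, adjusted p = 0.0166), and the zinc finger transcription factor gene Egr1 7817, 10088 and 8633 units in CEBPE cells, against 5609, 5049 and 5097 units in CEBPA cells (log2 0.75 ± 0.15, adjusted p = 0.0139). Against vector, Ccn2 was at -0.12 in CEBPE cells (adjusted p = 0.602) and -0.90 in CEBPA cells (adjusted p = 0.000146). Egr1 was lost without CEBPE array 2 (0.0694) or 3 (0.0559) and CEBPA array 2 (0.0751) or 3 (0.0687), and without the 5 arrays numbered 1 (0.0564). Ccn1 was lost without CEBPE array 2 (0.074) or 3 (0.0631), CEBPA array 1 (0.0825) or 3 (0.0543) with CEBPE and CEBPA arrays alone (0.252) and without the 5 arrays numbered 1 (0.225). In both groups many members of the list were below vector, 13 of 28 in CEBPE cells and 14 in CEBPA cells, among them Sgk1, a kinase gene that did not separate the C/EBPs (-0.03, 95% interval -0.30 to 0.24).

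Several gene groups differed widely from vector in both C/EBPs but gave no call between them. Of 18 tested heat shock chaperone genes, 15 were lower than vector in CEBPE cells and 15 in CEBPA cells, and none was called between CEBPE and CEBPA cells (median -0.12). The chaperone Hsph1 was at -2.12 in CEBPE cells and -1.95 in CEBPA cells relative to vector, with -0.17 between them (95% interval -0.43 to 0.10). Hspa8, Hspd1 and Hsp90aa1 gave -0.01 (-0.29 to 0.28), -0.13 (-0.42 to 0.16) and -0.11 (-0.47 to 0.25). Hspa1a, outside the naming rule, had the largest difference of the list, -1.32, and narrowly missed the threshold (adjusted p = 0.055). Of the 18 genes, 15 lay below 0. Of 16 cholesterol synthesis genes, 10 were higher than vector in CEBPE cells and 9 in CEBPA cells, with no call between the C/EBPs (median 0.13). Sqle, Fdps, Idi1 and Hmgcs1, enzymes of that pathway, gave 0.09 (-0.28 to 0.47), 0.12 (-0.32 to 0.56), 0.00 (-0.35 to 0.35) and 0.23 (-0.01 to 0.47).

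The zinc response is of interest because zinc induced the plasmids. None of 8 metallothionein and zinc response genes was called between the C/EBPs, and their median was -0.10. Mt1 and Mt2, the main metallothioneins, gave 0.03 (95% interval -0.37 to 0.43) and 0.18 (-0.15 to 0.52), and Mt3 gave -0.16 (-0.60 to 0.28). Haem oxygenase 1 (Hmox1) was far below vector in both, at -2.78 in CEBPE cells and -2.55 in CEBPA cells, and -0.23 apart (-0.61 to 0.15). A missed threshold does not show that the groups are alike. For these 4 genes the intervals exclude differences of 2-fold. The same holds for Hsph1, Hspa8, Hspd1, Hsp90aa1 and the cholesterol genes named, but not for Hspa1a, whose estimate itself is beyond 2-fold.

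**Figure D4:**
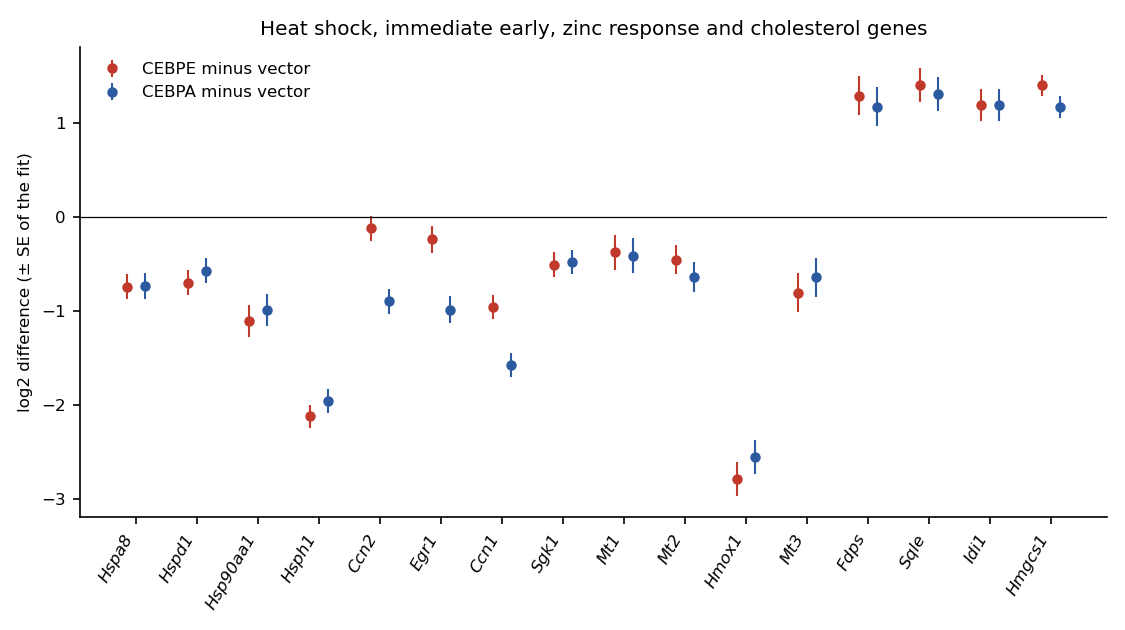
Log2 difference from vector, with the standard error of the fit as bars, in CEBPE cells (red) and CEBPA cells (blue) for 4 named members each of the heat shock, immediate early, zinc response and cholesterol synthesis lists. The 2 symbols of a gene lie close together except for Ccn2, Egr1 and Ccn1, which were called between CEBPE and CEBPA cells.

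The remaining lists gave no call. All 16 contractile and cytoskeletal genes lay above 0 with a median of 0.25 (0.17 to 0.20 under the other scalings), among them Tpm4 (0.25, 95% interval -0.04 to 0.54), Cnn3 (0.18, -0.11 to 0.46), Tagln2 (0.10, -0.14 to 0.33) and Myh9 (0.09, -0.31 to 0.49). The list of 17 TGF-beta, Wnt and Notch genes had a median of 0.22, with the inhibitor of differentiation Id1 at -0.17 (-0.43 to 0.08) and beta-catenin (Ctnnb1) at 0.19 (-0.15 to 0.53). Among 16 chemokines and cytokines (median 0.14), Ccl2 gave 0.15 (-0.18 to 0.48) and Cxcl1 0.52 (0.22 to 0.82, adjusted p = 0.112). For 38 cell cycle genes the median was 0.16, and Pcna, the sliding clamp of DNA replication, gave 0.08 (-0.23 to 0.39). The 22 genes of the integrated stress and unfolded protein responses had a median of -0.02, with Atf4 at -0.04 (-0.28 to 0.20), the chaperone Hspa5 at 0.03 (-0.25 to 0.32) and asparagine synthetase (Asns) at -0.33 (-0.58 to -0.08).

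Medians of the housekeeping lists were close to that of all genes. They were 0.07 over 42 oxidative phosphorylation genes, -0.02 over 17 ribosomal protein genes, -0.02 over 31 proteasome subunits and -0.02 over 17 glycolysis genes. The 13 circadian clock genes had a median of 0.02, with Nr1d1 at 0.02 (95% interval -0.29 to 0.33). All 31 proteasome genes and all 17 glycolysis genes lay within 1.5-fold. So did 40 of 42 oxidative phosphorylation genes, 16 of 17 ribosomal protein genes and 10 of 13 clock genes. The highest differences, not called, were 1.70 for an oxidative phosphorylation gene and 1.12 for a ribosomal protein gene.

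**Figure D5:**
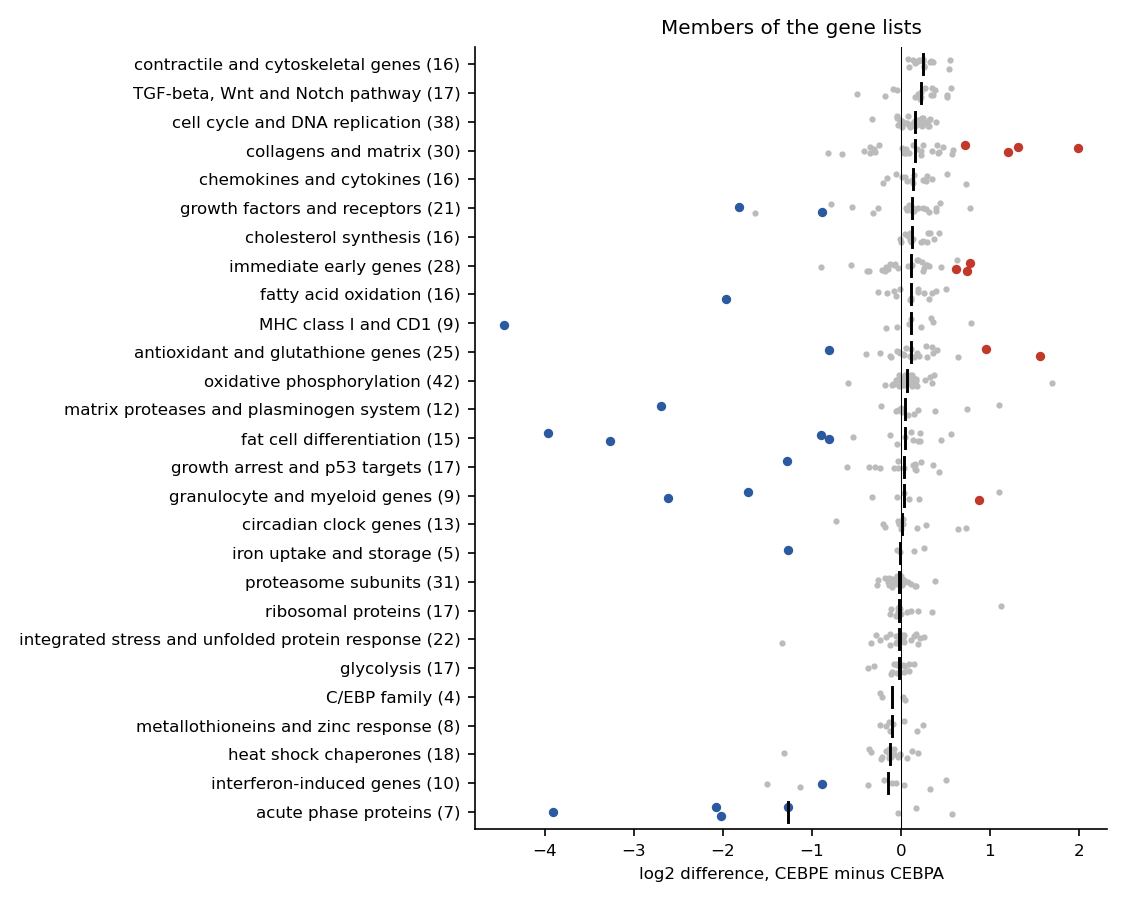
Log2 difference CEBPE minus CEBPA (horizontal axis) of each tested gene, by list, with called genes in red (higher) or blue (lower), others in grey, a black bar at each list's median and the number tested in brackets. Acute phase proteins have the lowest median, -1.27, with 4 of 7 genes called lower.

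The mouse C/EBP genes themselves showed no call. Cebpb, Cebpd, Cebpg and Ddit3 gave 0.04 (95% interval -0.65 to 0.74), -0.23 (-0.62 to 0.16), -0.21 (-0.55 to 0.13) and 0.02 (-0.35 to 0.39). Ddit3, the stress-induced family member CHOP, had 2353, 2481 and 2436 units in CEBPE cells, against 1930.2, 3281 and 2147 units in CEBPA cells, and 9045, 11744 and 11808 units in vector cells. Its CEBPE minus vector difference was -2.15 (adjusted p = 2.16e-07) and its CEBPA minus vector difference -2.18 (adjusted p = 1.92e-07). Cebpa did not pass the signal filter, with 495, 1127 and 737 units in CEBPE cells, against 533, 931 and 709 units in CEBPA cells, and 538, 463 and 632 units in vector cells. Whether its mouse probes read the human C/EBPa cDNA was not tested, so these values do not check the labels. No probe set analysed here names Cebpe.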

How the data were processed

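Total RNA of NIH 3T3 cells was measured on 15 Affymetrix arrays, 3 for each of 5 groups, which the titles give. The authors deposited linear signal intensities made with Microarray Suite 5.0, per the labels, and the 2% trimmed mean of 2501.12 to 2501.39 on every array shows a common scaling. They come with neither counts nor detection calls, so precision depends on how many arrays a group has.

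The 66 control probe sets among 12488 were removed. Every array was scaled so that its median equalled the mean of all 15 medians, floored at the pooled 20th percentile (189.652 units) and turned into log2 intensities from the deposited values. The filter kept probe sets with 3 or more of the 15 arrays above the pooled median of 1092.06 units. Gene symbols came from the platform annotation given with the reference (10833 probe sets name 1 gene, 396 several, 1193 none), and 10817 of the single-gene sets matched RefSeq by gene ID. Where a listed gene had several tested probe sets, the brightest was used.

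The main test was limma 3.58.1 (R 4.3.3), with lmFit and eBayes with a trend over the 5 groups together. Tests were two-sided, with Benjamini-Hochberg adjustment within a contrast and a threshold of 0.05. Intervals are 95% intervals of the fit. The fit was tried on simulated data with known changes. That simulation had independent normal noise and no floor, so it does not bear on calls that rest on floored signals. The samples were not treated as paired, since nothing states that a number marks a shared batch. Deviations of same-numbered CEBPE and CEBPA arrays correlated at 0.356, 0.019 and 0.100. Over all groups, same-number pairs ran from -0.07 to 0.44 and different-number pairs of different groups from -0.43 to 0.24. Whether the numbers mark a batch was not tested, and a fit with the number as a block is given below. No pair of arrays held identical values.

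The text names the 15 largest differences in each direction among called probe sets of 1 gene whose arrays did not overlap, the C/EBP genes, and up to 4 members of each list, called ones first and then the brightest. Not every such list member is printed. The comparison, the lists and the rule were chosen with earlier results of these data known. Motif matches were found with pandas 2.3.3. Alternatives were other scalings, floors and filters, no trend, array weights, a replicate block, only the 6 arrays compared, the labels' univariate F-test, and leaving out arrays.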

Additional observations from a re-analysis of the deposited data

How the results depend on the processing

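No difference of a called gene turned its sign under any alternative run. The count of probe sets lower in CEBPE cells, 53, was 86 with quantile normalization, 94 without scaling, 82 with scaling by the median ratio to the mean array and 81 with array weights. With only the 6 CEBPE and CEBPA arrays 20 probe sets were higher, against 38, and the univariate F-test left 2 higher and 7 lower. Without the 5 arrays numbered 1 there were 17 higher and 21 lower. A fit with the replicate number as a block called 81 higher and 90 lower, and 3 of the 6 arrays correlated best with their own number. Over the fits that left out 1 array, the counts ran from 17 to 47 higher and from 33 to 64 lower. The cause of these shifts was not tested. With the other floors and filters, and with no trend, the counts ran from 32 to 39 higher and from 40 to 58 lower. Of the 30 genes named by size, 20 were called in every fit that left out 1 array in which they were tested, and 17 of these also under every other alternative but the univariate F-test. Of 78 named list genes that were not called, 3 were called under some alternative: Gadd45a, Asns and Cxcl1. The median of the acute phase list, -1.27, was -1.09 without the arrays numbered 1 and ran from -1.51 to -1.08 when 1 array was left out, and that of the protease list, 0.05, was 0.12 without the arrays numbered 1. No array has a depth, and signals under the floor of 189.652 units limit what Pparg, Tgm3, Serpinb2, Serpini1 and Mgp can show.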

Other observations

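Beyond the genes already described, the following were chosen after their values were seen, among called genes outside the naming rule that stayed called in every fit that left out 1 array. Hmgn5, a nucleosome-binding protein, had 3500.0, 3960.2 and 3358 units in CEBPE cells, against 9767, 10237 and 10583 units in CEBPA cells (log2 -1.50 ± 0.14, limma adjusted p = 8.38e-06). Deiodinase 2 (Dio2), which activates thyroid hormone, had 1988, 1871 and 2118 units in CEBPE cells, against 3865, 5199.8 and 4526 units in CEBPA cells (log2 -1.18 ± 0.16, adjusted p = 0.000462). Sterol carrier protein 2 (Scp2), a peroxisomal lipid carrier, had 2877, 3030.3 and 2321 units in CEBPE cells, against 5389, 4604 and 5341 units in CEBPA cells (log2 -0.90 ± 0.13, adjusted p = 0.000783), and isocitrate dehydrogenase 1 (Idh1), a cytosolic source of NADPH, 6419, 7734 and 5964 units in CEBPE cells, against 12035, 10206 and 11184 units in CEBPA cells (log2 -0.74 ± 0.12, adjusted p = 0.00366). Both probe sets of Atp6v1b2, a subunit of the vacuolar proton pump, were called lower, at -1.18 (adjusted p = 0.000462) and -0.93 (adjusted p = 0.00475). On the higher side were Vcam1, an adhesion molecule for white blood cells, with 6332, 6804 and 5717 units in CEBPE cells, against 3447, 3342 and 3937 units in CEBPA cells (log2 0.81 ± 0.13, adjusted p = 0.00201), and Furin, a protease that cleaves proproteins, with 9522, 9355 and 9660.0 units in CEBPE cells, against 5855, 6193 and 5928 units in CEBPA cells (log2 0.67 ± 0.12, adjusted p = 0.00513). Without the 5 arrays numbered 1, Scp2 (adjusted p = 0.0536), Idh1 (0.16), the first of the Atp6v1b2 probe sets (0.0518), Vcam1 (0.0717) and Furin (0.144) were not called.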
